A study of Mus musculus with 22 samples.

Results

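Across the mouse autosomes, 6,074 windows of 1 kb carried a low but measurable level of CpG methylation in wild-type tissue of 3 kinds, the E10.5 embryo, the E14.5 liver and the E18.5 liver. They were chosen by their wild-type levels: a window qualified when 8 to 19 of its CpGs were each covered by at least 6 reads in all 12 bisulphite libraries and when its wild-type mean lay from 10% to below 35% in each tissue. They made up 1.20% of the 507,079 windows with 8 to 19 such CpGs, called candidates here, and 1.06% of all 574,594 windows with at least 8. The level of a window is the percent of methylated reads among all reads at its covered CpGs. Since these levels chose the windows, wild-type levels are given as a description, with no test.

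The mice were of the inbred FVB/NJ Line3, homozygous for a multi-copy GFP transgene driven by promoter and enhancer (HS-40) elements of human alpha-globin, and were either wild type or homozygous for Rlf MommeD28, an ENU-induced allele of Rlf, which encodes a zinc finger protein. Bisulphite sequencing covered 2 wild-type and 2 mutant samples each of E10.5 whole embryo (all male), E14.5 liver (replicate 1 of each genotype male, replicate 2 female) and E18.5 liver (all female). RNA-seq covered 3 livers of each genotype at E14.5, with replicates 1 and 2 male and replicate 3 female in both genotypes. E10.5 embryo differs from both livers in stage and tissue together, and from E18.5 liver also in sex, so these cannot be told apart there. The 2 liver datasets differ in stage and in the sexes sampled. The mutants carried the allele in all cells and came from matings of heterozygotes, and each sample is a mixture of the cells of its tissue.

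Most CpGs in mammalian DNA are methylated. CpG islands, the CpG-dense stretches at many promoters, are usually free of methylation, while the shores beside them and many enhancers carry low or intermediate levels. Bound transcription factors, among them the insulator protein CTCF, are known to keep nearby CpGs low, and in a bulk sample an intermediate level can come from partly methylated CpGs, from neighbouring CpGs that differ, or from cells that differ.

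Stretches of 160 bases from 6 member windows are shown because the results turn on windows of these kinds. All are the plus strand of NCBIM37 (mm9). The first pair lies in windows that gained much methylation in the mutants, the next lies in a window whose wild-type values were among the closest to the member medians, and the fourth lies in one of the 3 windows with the narrowest range over the 12 libraries. In these 4, capitals mark the CpGs of the reference. The last pair lies in members with methylated DNA to both sides and a CTCF core motif, whose 9 letters are in capitals (the reverse complement of AGGGGGCNC).
4921513I03Rik: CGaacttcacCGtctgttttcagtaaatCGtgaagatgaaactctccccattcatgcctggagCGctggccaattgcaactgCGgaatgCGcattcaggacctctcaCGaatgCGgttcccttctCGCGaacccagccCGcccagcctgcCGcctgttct (chr10:120131633-120131792)
CK137956: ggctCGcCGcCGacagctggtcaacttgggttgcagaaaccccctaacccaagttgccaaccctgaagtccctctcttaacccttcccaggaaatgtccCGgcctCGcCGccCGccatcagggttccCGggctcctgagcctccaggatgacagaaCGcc (chr4:127663678-127663837)
Abhd6: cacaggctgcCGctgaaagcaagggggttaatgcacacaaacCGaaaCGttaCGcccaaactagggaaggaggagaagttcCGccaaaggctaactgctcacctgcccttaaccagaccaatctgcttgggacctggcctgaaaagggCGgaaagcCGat (chr14:8833685-8833844)
Usp44: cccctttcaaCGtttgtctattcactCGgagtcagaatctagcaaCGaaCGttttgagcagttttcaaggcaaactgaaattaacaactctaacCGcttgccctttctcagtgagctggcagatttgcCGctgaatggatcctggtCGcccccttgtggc (chr10:93275826-93275985)
Nkx6-1: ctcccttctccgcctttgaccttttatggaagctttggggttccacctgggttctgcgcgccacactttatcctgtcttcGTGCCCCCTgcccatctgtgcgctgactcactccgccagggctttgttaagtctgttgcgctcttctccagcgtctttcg (chr5:102117596-102117755)
Ankrd36: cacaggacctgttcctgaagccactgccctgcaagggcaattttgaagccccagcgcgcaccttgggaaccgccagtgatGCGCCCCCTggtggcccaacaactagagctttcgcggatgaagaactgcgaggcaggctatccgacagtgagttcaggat (chr11:5529201-5529360)
In wild-type reads of the E10.5, E14.5 and E18.5 tissues, the stretch nearest 4921513I03Rik averaged 22.6%, 12.4% and 23.2% over its 12 CpGs, and in mutant reads 73.8%, 62.4% and 68.7%. The stretch nearest CK137956 went from 12.8%, 15.5% and 20.3% to 52.8%, 44.0% and 41.8%. Over its 7 marked CpGs, the stretch upstream of Abhd6 had 15.98%, 22.8% and 18.4% in wild-type reads against 15%, 18.03% and 19.9% in mutant reads. The files list 1 more CpG in that stretch, at a place where the reference letters are not CG. Although the window nearest Usp44 had a level near 18% as a whole, its printed stretch was at 10.01%, 4.27% and 4.01% in wild-type reads, so that its remaining CpGs held most of the methylation. The CpG that runs into the first capital was at 10.7%, 7.34% and 7.49% in the stretch nearest Nkx6-1, and the CpG inside the capitals of the Ankrd36 stretch was at 4.62%, 1.92% and 1.35%.

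The libraries held 314,390,416 to 697,227,249 reads over autosomal CpGs, with 40.4 to 45.4 reads per kept CpG in E14.5 liver and 22.6 to 25.7 in the other tissues. On unmethylated lambda DNA added to each library, 0.0412% to 0.0775% of cytosines were unconverted. A pair of libraries stood apart over the candidates. E18.5 mutant replicate 1 averaged 73.6%, while the other E18.5 libraries lay between 69.2% and 69.9%, and E14.5 wild-type replicate 1 averaged 63.15%, while the other E14.5 libraries lay between 65.8% and 66.9%. Mean differences and counts of calls are given with and without them.

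In wild-type tissue the members were spread over the whole allowed range and were similar in the 3 tissues. Their median level was 23.0% in E10.5 embryo, 20.8% in E14.5 liver and 22.3% in E18.5 liver, and the quartiles lay between 16.2% and 28.8% across tissues. The wild-type replicates of a window differed by a median of 3.26 points in E10.5 embryo, 2.36 in the more deeply sequenced E14.5 liver and 3.15 in E18.5 liver. Over all 12 libraries the range of a window had a median of 15.7 points and reached 67.6, and 829 members (13.7%) stayed within 10 points.

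**Figure D1:**
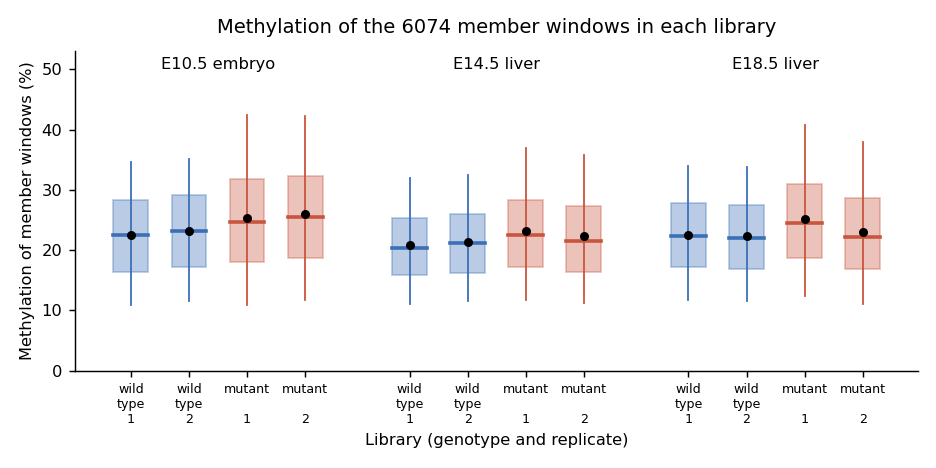
Methylation (percent, y axis) of the 6,074 member windows in each of the 12 bisulphite libraries (x axis, by tissue, genotype and replicate). Boxes span the quartiles, bars the medians, thin lines the 5th to 95th percentiles and black points the means, which lie between 20.8% and 23.2% in wild-type and between 22.3% and 25.9% in mutant libraries.

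A low level of a window seldom meant that each of its CpGs was low to the same degree. Of the 77,292 CpGs in member windows, 43.8% were below 10% in wild-type E10.5 embryo, 27.7% from 10% to below 35%, 15.1% from 35% to below 65%, and 13.4% at 65% or more. In E14.5 liver these shares were 43.4%, 31.7%, 17.5% and 7.39%, and in E18.5 liver 40.9%, 31.5%, 17.99% and 9.56%. The SD between the CpGs of a window had a median of 26.5 points in E10.5 embryo, 21.3 in E14.5 liver and 23.0 in E18.5 liver, while sampling of the same reads at one common level would give 6.49, 4.42 and 6.47. Mixed windows, with at least 2 CpGs below 10% and at least 2 at 65% or more, made up 46.2%, 25.1% and 32.3% of members. The shares were 2.26%, 2.19% and 2.05% of candidates, of whose CpGs 2.691%, 3.088% and 2.671% were below 10%, which limits mixing. Half-methylated windows (35% to below 65% in each tissue) were mixed in 15.01%, 14.11% and 13.17%. Their median SD between CpGs was 22.85, 18.72 and 19.66 points, so such unevenness was not particular to members. Members in which at least 75% of CpGs were themselves from 10% to below 35% made up 2.52%, 4.64% and 4.25%.

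**Figure D2:**
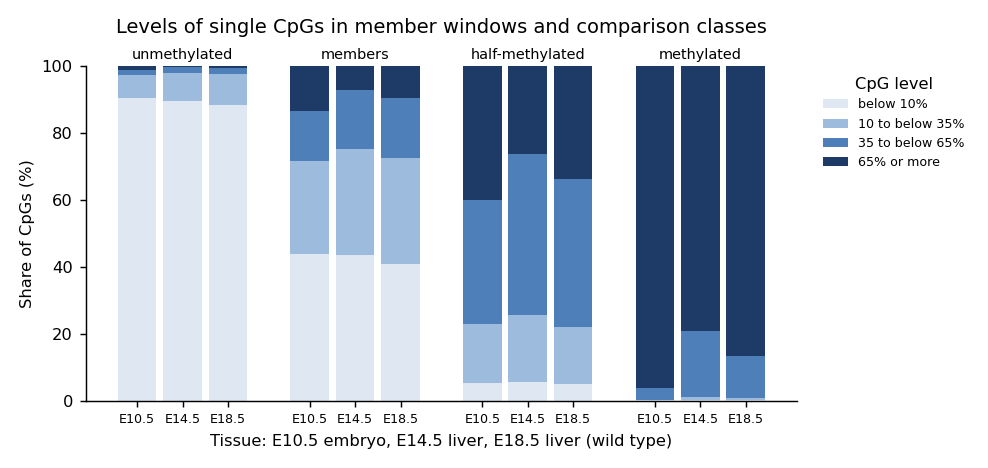
Share of single CpGs (percent, y axis) at 4 levels of methylation in wild-type reads of each tissue (x axis), for unmethylated windows, members, half-methylated windows and methylated windows. In members 40.9% to 43.8% of CpGs were below 10% and 7.39% to 13.4% were at 65% or more.

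Many members lay across an edge between unmethylated and methylated DNA, as CpG island shores do. The rule did not use the neighbouring windows. A neighbour below 10% in the wild-type mean was present for 2,426 members (39.9%), against 3.365% of candidates. Of the 4,940 members with covered CpGs in both neighbours, 548 (11.1%) had methylated neighbours (65% or more) on both sides, against 59.98% of such candidates. The median level of the lower neighbour was 23.1% and of the higher neighbour 68.3%, against 69.5% and 76.9% over candidates. For 1,207 members one neighbour was unmethylated and the other methylated, and 815 of these had at least 3 covered CpGs to either side of the window centre. In those, the CpGs on the side of the unmethylated neighbour had a median of 5.95%, 6.36% and 6.32% in the 3 tissues, and those on the side of the methylated neighbour 65.6%, 52.7% and 56.7%. The side of the unmethylated neighbour was the lower one in 791, 784 and 784 of the 815. In mutants the medians were 6.48%, 6.93% and 6.71% on the unmethylated side and 69.0%, 54.5% and 59.2% on the methylated side.

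**Figure D3:**
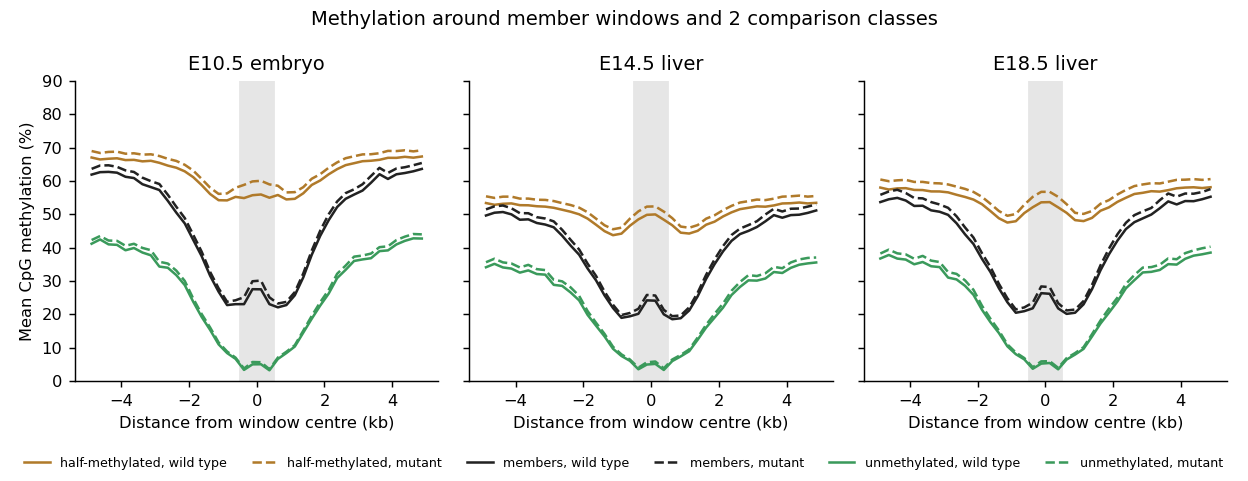
Mean CpG methylation (percent, y axis) in bins of 250 bases up to 5 kb from the window centre (x axis), for members, unmethylated windows and half-methylated windows in wild type (solid) and mutants (dashed). The grey band is the window, and in the outermost bins the wild-type libraries were at 48.6% to 63.8% around members. Adjacent members share their flanks.

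Members were closer to the start sites of genes than candidates, but a larger share of them lay between genes. The median distance from the window centre to the nearest protein-coding transcription start site (TSS) was 8.06 kb, against 28 kb for candidates, 1.38 kb for unmethylated windows (below 10% in each tissue) and 25.2 kb for half-methylated windows (35% to below 65% in each). There were 2,293 members (37.8%) within 2.5 kb of such a TSS, against 8.01% of candidates, and they were split between the upstream side (1,111) and the downstream side (1,182). By the place of the window centre, 7.06% of members were within 500 bases of a TSS, 3.01% in other exons, 35.1% in introns and 54.8% between genes. Candidates had 1.42%, 4.66%, 47.2% and 46.8% in these places.

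Genes for developmental regulators had members within 10 kb more often than protein-coding genes as a whole. Of 274 developmental transcription factor genes with a candidate within 10 kb of their TSS, 98 (35.8%) had a member there, among them Gata2, Hoxb1, Lhx1 and Nkx2-5. The share was 48 of 142 (33.8%) for signalling ligands and receptors, such as Wnt1, Fgf8 and Bmp4, and 3,518 of 19,367 (18.2%) over all protein-coding genes. Within 2.5 kb the shares were closer, with 18.7% for the transcription factor genes, 25% for the ligands and receptors and 14.2% over all. Lists for the cells of the fetal liver were short: 4 of 23 erythroid genes had a member (Epor, Trim10 and Urod among them), 6 of 25 hepatoblast genes, 4 of 11 macrophage genes, 3 of 12 endothelial genes, 3 of 12 mesenchymal genes, 1 of 10 neutrophil genes and 1 of 8 megakaryocyte genes. Of 30 imprinted genes, 6 had one (Dlk1, Igf2, Kcnq1, Magel2, Mkrn3 and Zdbf2). These shares are a description, and the number of candidates per gene was not matched between lists.

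Members within 10 kb of each other were joined into groups. Of the 6,074 members, 4,766 stood alone, 1,042 fell in groups of 2, 183 in groups of 3 and the rest in larger groups, and 174 pairs of members were adjacent. The largest group held 8 windows within 15 kb nearest Grik3, which encodes a kainate receptor subunit, at chr4:125161001-125176000. Its mean levels were 18.7% and 18.54% in wild-type E10.5 embryos and 20.9% and 24.6% in mutants, 19.5% and 20.8% against 23.4% and 20.2% in E14.5 liver, and 23.7% and 21.1% against 26.4% and 23.7% in E18.5 liver. None of its 8 windows was called in any tissue.

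In sequence the members were somewhat richer in G, C and CpG than candidates. Their median GC content was 48.4% against 46.3%, their median CpG observed-to-expected ratio 0.285 against 0.252, and the reference held a median of 16 CpGs in a member against 13 in a candidate. The CTCF core motif (AGGGGGCNC, either strand) occurred in 393 members (6.47%), against 2.43% of candidates, 5.45% of unmethylated windows, 4.28% of half-methylated windows and 1.98% of methylated windows (65% or more in each tissue). Among windows with methylated neighbours on both sides it occurred in 9.31% of members and 2.44% of candidates, and between the quartiles of the members' GC content in 6.30% of members and 2.54% of candidates. The CACCC box of KLF factors (CCNCACCC) was in 39.1% of members and 26.9% of candidates, and the GATA motif (AGATAA) in 39.8% and 41.6%. A match of letters does not show that the factor was bound.

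CpGs close to the CTCF core were the lowest within those 393 members. Wild-type levels were 8.74%, 8.03% and 8.83% in the 3 tissues up to 50 bases from the motif, 20.3%, 17.7% and 19.3% from 100 to 200 bases, and 34.1%, 30.03% and 31.9% from 200 to 300 bases. Mutant levels up to 50 bases were 10.2%, 8.98% and 10.2%. Half-methylated windows with the motif also had their lowest CpGs beside it, at 36.65%, 33.4% and 36.6% up to 50 bases and 59.7%, 52.4% and 56.3% from 200 to 300 bases. In methylated windows with the motif these levels were 83.6%, 70.8% and 75.2% and, farther out, 87.2%, 74.3% and 78.5%. The rule selected members for low levels, so only the gradient inside the window is not fixed by it. The window at chr5:102117001-102118000 nearest Nkx6-1, which encodes a homeobox factor of neural tube and pancreas, lay between neighbours at 77.0% and 77.4%. Its own levels were 17.96% and 15.4% in wild-type E10.5 embryos and 18.9% and 18.49% in mutants, 13.1% and 18.8% against 25.7% and 21.2% in E14.5 liver, and 21.7% and 21.5% against 26.7% and 21.5% in E18.5 liver. The intronic window of Ankrd36 at chr11:5529001-5530000 lay between neighbours at 82.7% and 71.6%.

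Averaged over members, methylation was higher in the mutant libraries in each tissue, by 1.64 to 2.76 points. In E10.5 embryo the means were 22.5% and 23.2% in wild types and 25.3% and 25.9% in mutants (22.9% ± 0.515 against 25.6% ± 0.432, SD, n = 2 each), and the groups did not overlap. In E14.5 liver they were 20.8% and 21.4% against 23.2% and 22.3%, again without overlap. In E18.5 liver they were 22.5% and 22.3% against 25.2% and 23.0%, and the difference of 1.74 points was 0.644 without mutant replicate 1 and 2.84 without mutant replicate 2. Over half-methylated windows the mean differences were 4.36, 2.43 and 3.09 points, larger than over members in each tissue. Over candidates they were 1.585, 2.03 and 2.36 points. The members' difference exceeded that of candidates in E10.5 embryo, also without any single library. In the livers it was the lower one, but this order rested on the libraries that stood apart: without E14.5 wild-type replicate 1 members differed by 1.34 points and candidates by 0.721, and without E18.5 mutant replicate 1 the candidates' difference was 0.504, below that of members. With members chosen on one wild-type replicate and the wild-type level taken from the other, the E10.5 difference was 2.18 or 2.66 points, the E14.5 difference 1.39 or 1.80 and the E18.5 difference 1.75 or 1.37. From the same libraries, candidates differed by 1.43 or 1.74, 0.721 or 3.34, and 2.16 or 2.57 points, so members did not exceed them throughout the livers. The mutant mean was the higher one in 67.1%, 63.0% and 60.6% of members, against 67.3%, 74.1% and 72.8% of candidates. Among half-methylated windows it was the higher one in 78.0%, 72.5% and 73.4%. Without E14.5 wild-type replicate 1 the E14.5 shares were 58.9% of members and 56.98% of candidates, and without E18.5 mutant replicate 1 the E18.5 shares were 50.7% and 54.0%. In mutants 933, 377 and 613 members had a mean of 35% or more, and 129, 97 and 89 a mean below 10%. Without E18.5 mutant replicate 1 the E18.5 numbers were 510 and 179. The number below 10% was 207 in E10.5 embryo without mutant replicate 2 and 162 in E14.5 liver without mutant replicate 1. At the edges of the rule, 449 members with a lowest tissue mean from 10% to below 11% had median differences of 1.003, 1.03 and 1.14 points, and 451 windows just outside, with a lowest mean from 9% to below 10%, had 1.24, 1.001 and 0.384. The 402 members with a highest mean from 34% to below 35% had 2.64, 1.42 and 1.95 points, and 433 windows with a highest mean from 35% to below 36% had 3.24, 1.53 and 2.08.

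A small set of members was called as gaining methylation in the mutants. Windows were tested with edgeR's quasi-likelihood test on methylated and unmethylated reads, adjusted by Benjamini-Hochberg over all 574,594 windows, and called at an adjusted p under 0.05 with a difference above 15 points. In E10.5 embryo 182 members (2.996%) were called more methylated, against 0.406% of all windows tested. In E14.5 liver 71 (1.17%) were called, against 0.15%, and in E18.5 liver 99 (1.63%), against 0.239%. The wild-type values that chose the members also enter this test, which can raise gains and lower losses. No count of calls used wild-type samples apart from those of the rule. Limma on log2 ratios called 59, 7 and 20 members more methylated. No member was called less methylated in any tissue. The shares over all windows were 0.00383%, 0.004% and 0.0054%, too low for anything to be read from this absence. A loss of more than 15 points was possible only where the wild-type mean was above 15%, as in 82.9%, 80.9% and 84.8% of members. Of members lower in mutants, 138, 148 and 196 had an unadjusted p under 0.05 (2.27%, 2.44% and 3.23% of members, against 1.14%, 0.488% and 0.88% of all windows), none of them by more than 15 points, and limma called none. By level, half-methylated windows were called more methylated in 2.24%, 0.382% and 0.649%, unmethylated windows in 0.134%, 0.134% and 0.0802%, and methylated windows in 0.0233%, 0.000364% and 0.02003%. The wild-type means of methylated windows were 87.9%, 74.2% and 78.5%, and whether the room left to gain limited their calls was not tested. With 2 samples a group the counts depended on single libraries: E10.5 gave 53 without wild-type replicate 1, 115 without mutant replicate 1 and 120 without mutant replicate 2, E14.5 gave 40 without wild-type replicate 1 and 43 without mutant replicate 1, and E18.5 gave 60 without wild-type replicate 1, 41 without wild-type replicate 2 and 55 without mutant replicate 1.

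**Figure D4:**
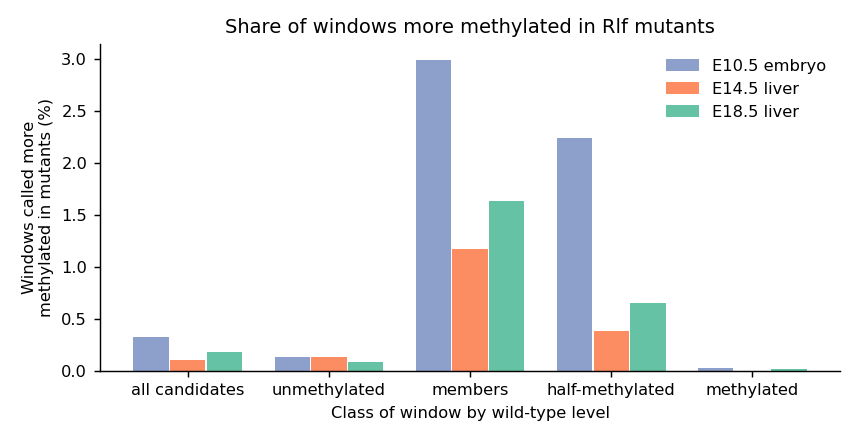
Share of windows called more methylated in mutants (percent, y axis) by class of wild-type level (x axis) in each tissue (colours). Members were called in 2.996%, 1.17% and 1.63%, and all candidates in 0.327%, 0.107% and 0.183%.

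Most members called in any tissue were called in 1 of them. Of 229 members called in at least 1 tissue, 147 (64.2%) were called in 1, 41 (17.9%) in 2 and 41 in all 3. Over all windows tested, 3,554 were called in at least 1 tissue, 79.0% of them in 1, 13.3% in 2 and 7.65% in all 3. The difference between these shares was not tested. The number of members called in all 3 was 28 without E18.5 mutant replicate 1 (27 of them among the 41), 29 without E14.5 wild-type replicate 1, 20 without E10.5 wild-type replicate 1, 25 without E18.5 wild-type replicate 1 and 20 without E18.5 wild-type replicate 2. Both E10.5 embryo and E14.5 liver called 44 members (24.2% of the first and 62.0% of the second), E10.5 embryo and E18.5 liver 69 (37.9% and 69.7%), and both livers 51 (71.8% and 51.5%). These overlaps also rested on single libraries. Without E18.5 mutant replicate 1 they were 46, 44 and 31 members, without E14.5 wild-type replicate 1 31, 63 and 32, without E14.5 mutant replicate 1 32, 65 and 30, without E18.5 wild-type replicate 1 44, 44 and 28, without E18.5 wild-type replicate 2 44, 31 and 23, and without E10.5 wild-type replicate 1 22, 31 and 51. With all libraries, the same shares over all windows were 15.6% and 42.0%, 21.1% and 35.8%, and 50.2% and 31.6%. Across the 6,074 members, which are not independent replicates, the differences of 2 tissues correlated with Pearson's r = 0.541, 0.518 and 0.598, against 0.193, 0.171 and 0.215 across candidates. Without E18.5 mutant replicate 1 the members' values for E18.5 were 0.449 with E10.5 and 0.511 with E14.5, and those of candidates 0.137 and 0.163. The tissues share no samples. In the test of a difference between tissues no member passed, against 0.00331%, 0.000174% and 0.00313% of all windows (E14.5 against E10.5, E18.5 against E14.5 and E18.5 against E10.5). The same edgeR fit gave 371, 235 and 384 members (6.11%, 3.87% and 6.32%) at an unadjusted p under 0.05, against 4.39%, 3.22% and 5.17% of all windows, and 2 members passed for E18.5 against E10.5 when replicate number was a block.

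The 41 members called in all 3 tissues reached 41.3% to 50.2% in mutants. As the rule limited wild-type levels and the calls required gains, these members are described without a test. Their means were 20.6% and 27.1% in wild-type E10.5 embryos and 50.2% and 49.1% in mutants, 19.3% and 20.4% against 42.6% and 41.3% in E14.5 liver, and 21.2% and 20.8% against 46.2% and 43.9% in E18.5 liver. They were farther from a TSS than members as a whole, with a median of 15.4 kb and 32 of 41 beyond 10 kb, where 46.9% of all members lay. Of the 41, 13 lay in introns and 1 in an exon. The median was 13.04 kb for the 229 called in at least 1 tissue. By number of CpGs, members with 16 to 19 were called in 4.71%, 1.77% and 2.59%, and members with 8 to 11 in 2.27%, 0.836% and 1.23%. The median differences were close, at 2.14, 1.25 and 0.961 points for 16 to 19 CpGs and 2.01, 1.20 and 1.31 for 8 to 11. Members with methylated neighbours on both sides were called in 2.19%, 0.547% and 0.730%. The CTCF core was in 15 of the 229 (6.55%).

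The highest gain was in the window at chr10:120131001-120132000, between genes and 71,329 bases from the TSS of 4921513I03Rik. Its levels were 16.5% and 30.8% in wild-type E10.5 embryos and 75.2% and 72.4% in mutants. In E14.5 liver they were 8.73% and 13.7% against 57.6% and 60.8%, and in E18.5 liver 19.5% and 24.0% against 68.8% and 68.6%. The differences of 50.2, 48.0 and 47.0 points had adjusted p = 1.7e-13, 5.2e-17 and 1.4e-12 by edgeR, and no wild-type library reached the lowest mutant library of its tissue. Its neighbours were at 45.3% and 63.9% in wild type.

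The window at chr10:67110001-67111000, 75,711 bases from Gm10797, had 26.6% and 31.3% against 56.5% and 54.4% in E10.5 embryo, 13.2% and 15.9% against 52.2% and 44.0% in E14.5 liver, and 8.73% and 11.7% against 59.6% and 54.6% in E18.5 liver. Its gain of 26.6 points in E10.5 embryo and 46.9 in E18.5 liver gave the smallest p for a difference between tissues among members (edgeR, adjusted p = 0.0539, not called). The window 12,676 bases from Mgat5b, which encodes a glycosyltransferase, at chr11:116767001-116768000, gained 36.3, 22.3 and 41.6 points. The window 21,643 bases from Gm5800, at chr14:52358001-52359000, gained 39.6, 25.4 and 27.8 points.

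The window 15,306 bases from CK137956, at chr4:127663001-127664000, had 16.2% and 21.9% against 58.6% and 51.6% in E10.5 embryo, 14.2% and 22.3% against 44.1% and 48.1% in E14.5 liver, and 25.2% and 18.95% against 50.6% and 44.1% in E18.5 liver. The E18.5 call was lost without wild-type replicate 2 (edgeR, adjusted p = 0.103). It lay between neighbours at 70.8% and 12.3%. The window 67,197 bases from Prdm9, whose product directs meiotic recombination, at chr17:15768001-15769000, gained 36.8, 19.1 and 29.8 points. In these 6 windows the groups did not overlap in any tissue, but the windows were chosen for their large gains, which favours such separation. Both mutant libraries lay above both wild-type libraries in 34.99%, 33.04% and 28.22% of all members in the 3 tissues. Over candidates these shares were 30.82%, 33.89% and 31.25%.

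**Figure D5:**
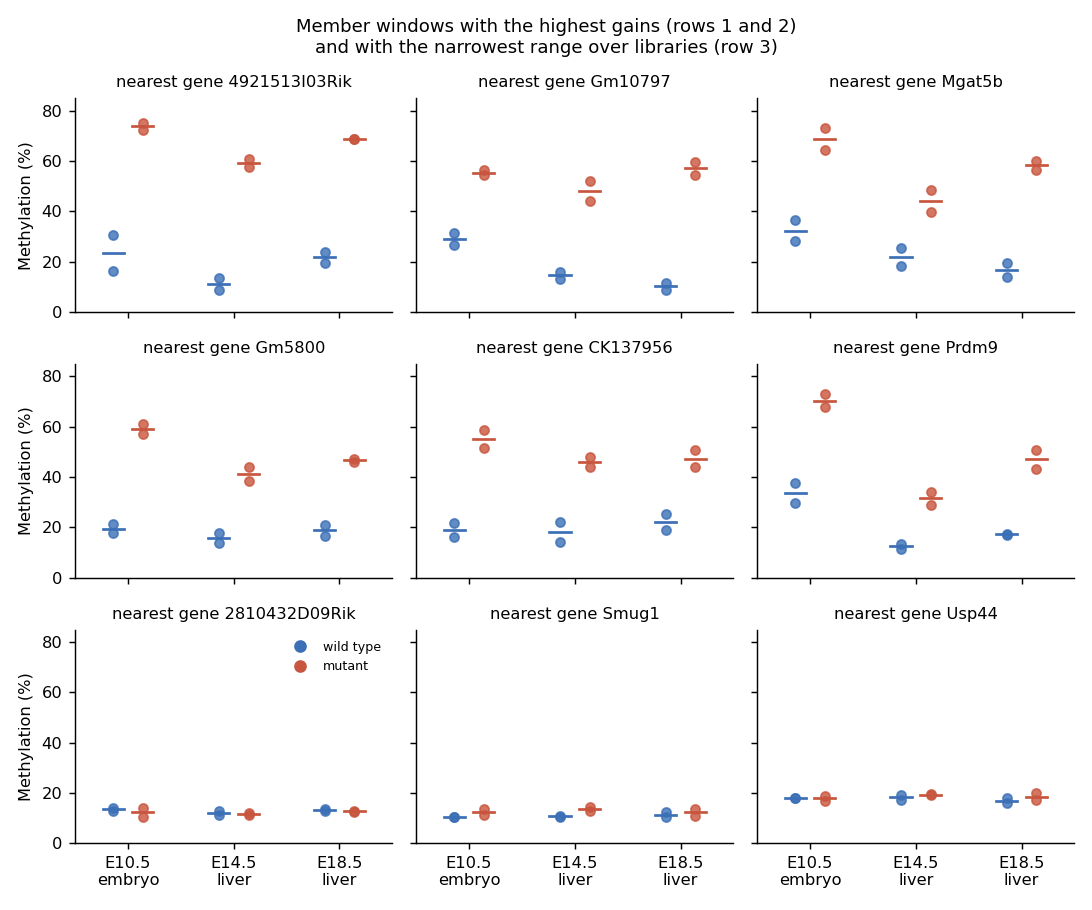
Methylation (percent, y axis) of single member windows in each library, by tissue (x axis) and genotype (colours), with bars at the group means of 2 samples. The 6 windows with the highest gains among those called in all 3 tissues and covered by at least 10 reads per CpG in each library fill the first rows, with mutant levels of 29.0% to 75.2%, and the 3 with the narrowest range, of 3.62 to 4.04 points, fill the last.

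Genes on the list of developmental transcription factors were the nearest gene for 24 of the 229 called members (10.48%) and 6 of the 41 called in all 3 tissues (14.6%), against 4.54% of all members. The list is not complete and leaves out Ptf1a and Sim1, whose windows are given below. The 6 were nearest Tcfap2c, Hoxb1, Pax2, Zic4, Irx3 and Pax3, regulators of the neural tube, neural crest or body axis, and all lay between genes. The window at chr11:96235001-96236000, 8,435 bases from Hoxb1, had 28.8% and 34.5% against 51.7% and 48.4% in E10.5 embryo, 13.02% and 13.9% against 40.9% and 42.8% in E14.5 liver, and 14.3% and 18.7% against 47.1% and 49.2% in E18.5 liver. The window at chr1:78204001-78205000, 10,792 bases from Pax3, had 16.9% and 22.0% against 44.7% and 47.0%, 13.6% and 13.03% against 31.0% and 39.3%, and 15.1% and 12.01% against 34.95% and 29.4%. In the windows 73,010 bases from Tcfap2c and 79,038 bases from Pax2 the gains were 25.4, 25.6 and 31.0 points, and 30.6, 17.2 and 29.0 points.

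The called members whose nearest gene was another on that list passed in fewer tissues. The window 2,563 bases from Hoxa10, a homeobox gene of the posterior body, was called in E10.5 embryo, with 13.97% and 12.6% against 37.8% and 31.9%. In E14.5 liver it had 13.95% and 11.9% against 21.2% and 21.0%, and in E18.5 liver 31.6% and 20% against 29.9% and 28.9%. The window 379,544 bases from Id2 was called in E18.5 liver only, with 21.2% and 22.2% against 41.6% and 36.3%, and had 16.6% and 16.6% against 14.3% and 14.02% in E10.5 embryo. The difference between tissues did not pass the test for any of these.

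Of the groups of 4 or more members, 2 held more than 1 called window, and in both the calls left out some of the group. In the group of 5 at chr5:35719001-35744000, the 3 windows nearest E130018O15Rik were each called in at least 1 tissue. The first of them had 16.5% and 21.4% in wild-type E10.5 embryos and 40.8% and 38.2% in mutants, 10.4% and 11.2% against 27.9% and 27.7% in E14.5 liver, and 16.5% and 13.5% against 38.96% and 29.5% in E18.5 liver, and was called in all 3. The other pair, nearest Hmx1, a homeobox gene of the developing eye and ear, was not called and differed by 6.09 and -5.34 points in E10.5 embryo, 6.61 and 1.28 in E14.5 liver, and 2.95 and -1.21 in E18.5 liver. In the group of 4 nearest Bcl11b, a factor of T cell and neuron development, at chr12:109214001-109220000, 2 windows were called, both in E10.5 embryo alone. They gained 16.9 and 21.9 points there, and the windows that were not called differed by 6.44 and 6.77. In the livers the differences of all 4 lay between 5.35 and 8.76 points and none was called. Among adjacent members, both windows nearest Ptf1a, a factor of pancreas and cerebellum, at chr2:19377001-19379000, were called in all 3 tissues, and so were both nearest Sim1, a factor of the hypothalamus, at chr10:50628001-50630000. The second Ptf1a window had 34.2% and 27.2% against 61.2% and 61.9% in E10.5 embryo, 35.7% and 32.5% against 57.9% and 61.4% in E14.5 liver, and 29.9% and 34.4% against 61.5% and 58.4% in E18.5 liver. These groups and pairs were singled out with their values in view.

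Most members differed little between the genotypes. The 3 windows closest to the member medians were at the TSS of Pth2r, in an intron of Plcd3 and 1,915 bases from the TSS of Abhd6, which encodes a lipid hydrolase. The Abhd6 window, at chr14:8833001-8834000, had 24.1% and 22.5% against 27.4% and 24.4% in E10.5 embryo, 20.3% and 21.8% against 17.6% and 23.0% in E14.5 liver, and 22.0% and 21.7% against 25.1% and 16.3% in E18.5 liver. In the livers its groups overlapped, and none of its differences passed the test (edgeR, adjusted p = 0.856, 0.977 and 0.937). The narrowest ranges were in windows nearest 2810432D09Rik (3.62 points over 12 libraries), Smug1 (3.95) and Usp44 (4.04). The Usp44 window, at chr10:93275001-93276000, lay between neighbours at 75.4% and 75.6% and stayed between 15.96% and 20% in all 12 libraries.

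No called member lay within 10 kb of the TSS of a listed erythroid or hepatoblast gene, but only 0.589% of all protein-coding genes with a candidate there had one, so nothing is read from this count. The window at the TSS of Epor, the erythropoietin receptor gene, at chr9:21768001-21769000, had 27.5% and 30.4% against 30.5% and 25.2% in E10.5 embryo, 26.8% and 25.1% against 22.2% and 18.7% in E14.5 liver, and 25.9% and 24.6% against 22.7% and 23.7% in E18.5 liver. The windows at Krt18 and Dlk1, genes of hepatoblasts, differed by 6.05 and 9.55 points in E10.5 embryo, -1.39 and 12.6 in E14.5 liver, and 4.88 and 5.23 in E18.5 liver. The windows followed within 2.5 kb of the transcription factor genes Sox12, Pou5f1 and Sox6 were not called either. Of these, the Sox6 window was nearest to a call, with a difference of 11.5 points in E18.5 liver (edgeR, adjusted p = 0.186). Members as close to other genes on that list were called. One was 449 bases from Nkx2-6 (E14.5 liver, 16.7 points; edgeR, adjusted p = 0.00019). Another was 1,793 bases from Mef2d (E10.5 embryo, 19.6 points; edgeR, adjusted p = 0.0025).

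Windows at 3 of the imprinted genes were followed. An intronic window of Igf2, the fetal growth factor gene, at chr7:149841001-149842000, had 14.1% and 17.1% against 27.1% and 34.7% in E10.5 embryo and was called there (15.3 points; edgeR, adjusted p = 0.0116), but not without wild-type replicate 1 (0.291) or mutant replicate 2 (0.313). Its differences of 14.4 points in E14.5 liver and 13.5 in E18.5 liver were not called. The window at the TSS of Mkrn3 had 38.0% and 31.4% against 26.1% and 23.8%, 25.2% and 28.3% against 20.9% and 15.9%, and 31.8% and 25.8% against 21.8% and 18.7%. Its mutant libraries were below its wild-type libraries in each tissue, yet the differences of -9.77, -8.37 and -8.50 points did not pass (edgeR, adjusted p = 0.184, 0.253 and 0.27). The window at the TSS of Magel2, in the same imprinted region, differed by 0.0553, -0.656 and -4.22 points.

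Besides Gm10797, the smallest p for a difference between tissues fell to windows nearest Thoc6 and Myof. The Thoc6 window, at chr17:23811001-23812000, had 15.6% and 15.7% against 31.5% and 31.4% in E10.5 embryo, 21.4% and 22.2% against 22.7% and 19.1% in E14.5 liver, and 22.6% and 21.1% against 19.5% and 15.6% in E18.5 liver. It was called in E10.5 embryo alone, and E18.5 against E10.5 gave an adjusted p of 0.0625 by edgeR. The Myof window was called in E10.5 embryo (15.5 points) but not without wild-type replicate 1 or mutant replicate 2, where its difference was 14.8 and 11.5 points.

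A few members were lower in mutants without reaching 15 points. At an adjusted p under 0.05 and any size, 4, 9 and 6 members (0.0659%, 0.148% and 0.0988%) were lower in the 3 tissues, 16 different windows in all, against 0.0172%, 0.0118% and 0.0151% of all windows. There were 236, 119 and 117 members higher (3.89%, 1.96% and 1.93%), against 0.868%, 0.315% and 0.381%. One was lower in all 3, the window at chr4:88287001-88288000, 2,862 bases from Ifna13, an interferon gene. It had 26.7% and 18.3% against 10.2% and 8.49% in E10.5 embryo, 22.4% and 23.5% against 11.4% and 11.4% in E14.5 liver, and 21.3% and 18.9% against 9.09% and 5.05% in E18.5 liver. Its differences of -13.2, -11.5 and -13.03 points had adjusted p = 0.00133, 0.00691 and 0.000715 by edgeR. An intronic window of Zfand1 was lower by this test in both livers, with 19.9% and 20.2% against 10.2% and 11.01% at E14.5 and 22.8% and 22.8% against 8.57% and 11.7% at E18.5. Both windows were singled out with their values in view.

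RNA-seq of E14.5 liver showed whether genes beside members changed in expression, which the rule did not use. The libraries held 12,928,313 to 14,621,004 counts, and all 6 expressed genes that mark the erythroid and hepatoblast cells of fetal liver, with 2,012 to 2,577 counts for Epor and 28,290 to 34,654 for Dlk1. In such bulk samples, fewer cells of a type and less RNA per cell cannot be told apart. Rlf itself had 70.0, 72.3 and 68.9 CPM (counts scaled to the size of the library) in wild types and 76.3, 79.8 and 67.6 in mutants, a log2 fold change of 0.08 (edgeR, adjusted p = 0.647, or 0.582 with the replicate block), so its RNA level does not check the labels. Of 1,734 tested genes with a protein-coding TSS within 2.5 kb of a member, 14 were higher in mutants (0.807%) and 7 lower (0.404%), against 0.698% and 0.691% of all 14,183 genes tested. Their median log2 fold change was 0.01, and that of all genes -0.0017. With replicate number as a block the counts were 39 (2.25%) and 18 (1.04%), against 1.85% and 1.39% of all genes. The shares lay near the background in both fits, and nothing is read from them. The counts ranged from 1 to 13 and from 3 to 9 when a library was left out.

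Of the genes that changed beside members, Tcf7l2, which encodes a nuclear effector of Wnt signalling, went from 37.5, 31.6 and 35.4 CPM to 18.4, 16.7 and 19.6 (log2 fold change -0.93, SE 0.09; edgeR, adjusted p = 0.000541). Its member window 799 bases upstream of the TSS, at chr19:55815001-55816000, had 12.1% and 12.7% in wild-type E14.5 liver and 20.7% and 17.4% in mutants, which was not called (adjusted p = 0.254). Atp2b2, a plasma membrane calcium pump gene, fell from 4.04, 3.83 and 2.46 CPM to 0.931, 1.01 and 0.772 (log2 fold change -1.92, SE 0.28; edgeR, adjusted p = 0.00579), and its intronic member window had 24.2% and 21.8% against 36.9% and 31.0%, also not called (adjusted p = 0.374). Neurl1a fell by 1.27 on the log2 scale, and Nefh, Dab1 and Pcdh7, known from neurons, rose by 1.20, 0.94 and 0.83 (edgeR, adjusted p = 0.04495, 0.0156, 0.0424 and 0.0372 in this order). All 4 had low counts, with mean CPM of 3.75, 1.46, 1.98 and 5.10 in wild types and 1.55, 3.37, 3.83 and 9.085 in mutants. The median wild-type CPM over all genes tested was 24.6. With the replicate block the adjusted p of these 4 was 0.00692, 0.00912, 0.0254 and 0.00538. Each of the 4 lost its call without some single libraries (adjusted p up to 0.16, 0.0843, 0.144 and 0.13), and Dab1 also by DESeq2 (0.0952). None of the member windows of these 6 genes was called in any tissue. Tcf7l2 and Atp2b2 kept an adjusted p under 0.05 in every alternative run, the replicate block included.

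Few genes beside the called members could be tested for expression. Of 40 tested genes with a TSS within 2.5 kb of a member called in at least 1 tissue, 1 passed, Slfn9 of the Schlafen family, at 77.6, 70.5 and 79.8 CPM in wild types and 50.1, 37.2 and 55.0 in mutants (log2 fold change -0.68, SE 0.12; edgeR, adjusted p = 0.0143, or 0.000138 with the replicate block). It was lost without wild-type replicate 1, wild-type replicate 3 or mutant replicate 1 (adjusted p = 0.052, 0.0538 and 0.0577). As a share, 2.5% of the 40 genes were lower and 0% higher, against 0.691% and 0.698% of all genes tested, and a replicate block also called 1 of the 40. Its member window, 1,138 bases downstream of the TSS in an intron at chr11:82803001-82804000, had 28.6% and 25.1% against 56.7% and 56.8% in E10.5 embryo and 35.8% and 26.02% against 37.7% and 69.8% in E18.5 liver, where it was called. In E14.5 liver, the tissue of the RNA, it had 27.4% and 30.3% against 39.4% and 42.8% and was not called (edgeR, adjusted p = 0.428). The E18.5 call rested on single libraries, since the difference was 6.78 points without mutant replicate 2 (edgeR, adjusted p = 0.434) and 17.9 without wild-type replicate 2 (0.412). Schlafen genes are close paralogs, so its counts may be shared with neighbours.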

How the data were processed

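Each bisulphite file, as deposited, gives for every CpG the count of unconverted (methylated) and converted reads. The authors made these counts from trimmed reads with Bismark and Bowtie2 on mm9 carrying FVB/NJ substitutions, removed duplicates and merged the strands. The methylation percent that the authors rounded to whole numbers beside the counts was not used. For RNA-seq the authors deposited counts per Ensembl gene from Tophat and htseq-count, without strand.

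Reads of CpGs that reached 6 reads in every one of the 12 libraries were summed in 1 kb windows of chromosomes 1 to 19. Windows were tested with edgeR 4.0.16 in R 4.3.3, in 1 fit of 12 libraries with 1 intercept per library and a genotype effect for each tissue. The dispersion came from every 100th window. RNA counts were tested with edgeR (TMM, filterByExpr). Both tests were tried on simulated data. Where the labels do not say that samples are separate animals, p-values measure only the spread between these samples. Annotation was GENCODE vM1 on NCBIM37, and 97.9% of kept CpGs were CG in that reference. Other tools were python 3.11.15, pandas 2.3.3, limma 3.58.1 and DESeq2 1.42.0.

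The members and the gene and motif lists were chosen with earlier results of these data known. Named windows were those with the largest mean gains among members called in all 3 tissues (6), those closest to the wild-type medians (3), those with the smallest range over libraries (3), those with the smallest p for a tissue difference (3), and up to 3 per list at the TSS of listed erythroid, hepatoblast, imprinted and transcription factor genes, all with at least 10 reads per CpG in each library. The rule for called losses found none. Not every window that these rules name is reported here. Named genes were the 6 largest changes among called genes within 2.5 kb of a member. RNA samples that share a replicate number strayed from their groups in the same direction (r = 0.125, 0.226 and 0.409 over 14,183 genes). On this check of the data alone, a fit with replicate number as a block was run beside the main fit, which had no block. Sex follows the replicate number in the RNA samples, so the block also holds sex. The alternatives were the read minimum, the window start, the averaging, the size of a difference, the tool, the filter, the distance to a TSS, sex, a replicate block and leaving out each library. H3K4me1 ChIP-seq was not analysed here. Counting error limits single windows, since a window holds few CpGs.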

Additional observations from a re-analysis of the deposited data

How the results depend on the processing

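The number of members was 4,962 with a minimum of 10 reads (61.3% of the members remained), 6,141 with windows shifted by 500 bases, 6,212 with the mean of CpG levels, and 5,954 to 6,051 without single wild-type libraries. The E10.5 mean difference was 2.22 points with the mean of CpG levels and 2.18 with members chosen on replicate 1. Members called more methylated numbered (E10.5, E14.5 and E18.5 in this order) 83, 27 and 49 at a minimum of 20 points, 232, 116 and 117 at 10 points, and 59, 7 and 20 by limma. Leaving out 1 library gave 53 to 197, 40 to 72 and 41 to 134 members more methylated, 0 to 3, 0 to 1 and 0 to 2 less methylated, and mean differences of 2.39 to 3.12, 1.20 to 2.08 and 0.644 to 2.84 points. At 10 points 2, 3 and 5 members were called less methylated, and 1 in E10.5 embryo at a minimum of 10 reads. There were 1,383 members within 1 kb of a TSS. In the bisulphite data the replicate numbers gave little sign of pairing (r of replicate differences 0.114, 0.0244 and 0.0192 over members), and a replicate block gave 187, 71 and 101 calls more methylated and 2 members with a difference between E18.5 and E10.5. Genes beside members called higher and lower numbered 39 and 18 with a replicate block, 49 and 16 with no filter, 16 and 10 by DESeq2, and 19 and 12 within 10 kb, and ranged from 1 to 13 and from 3 to 9 when a library was left out. The causes were not tested.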
